A study of Mus musculus with 10 samples.

Results

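The genes described here are 10 inhibitors, feedback regulators and subunits of the NF-κB pathway: Tnip1, Tnip2, Tnip3, Tnfaip3, Birc3, Nfkbia, Nfkbie, Nfkbid, Nfkbiz and Relb. They were listed by name, with Tnip3 set against its family, after the difference between the groups had been seen in these same libraries. Their differences between groups are therefore a description, without a test. The 10 genes stand among 34932 annotated genes, and all 10 passed the filter on low counts that kept 11781 genes for testing. RNA was measured by SMART-Seq2, which amplifies full-length transcripts from few cells, in mouse Pmel CD8+ T cells, whose T cell receptor recognises the melanocyte antigen gp100. The donor cells, which carry the Thy1.2 allele, were transduced with a retrovirus that carries the surface marker Thy1.1 and were transferred into Ly5.1 mice bearing B16-F10 melanoma tumors, from which 2000 cells per mouse were sorted on day 7. In the 5 libraries labelled MIT-BATF the retrovirus also carried the open reading frame of Batf, an AP-1 family transcription factor, and in the 5 labelled MIT-Empty it carried the marker alone. Both groups thus share the receptor transgene, the donor strain, the transduction, the marker and the tumor. By design the added Batf stood under a viral promoter rather than its own.

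NF-κB dimers are held inactive in the cytoplasm by IκB proteins. Signals from the T cell receptor, from TNF family receptors and from IL-1 family receptors activate a kinase complex that marks the IκB proteins for destruction, and the freed dimers enter the nucleus. Many of the genes they switch on encode their own brakes, which makes the pathway self-limiting. In CD8+ T cells the pathway supports activation, survival and cytokine production. TNIP proteins, also named ABINs, include members that bind ubiquitin chains and the ubiquitin-editing enzyme A20, the product of Tnfaip3, and restrain signalling upstream of the dimers.

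The depth was 10702908 to 34102346 estimated counts per library labelled MIT-BATF and 6534648 to 21355922 per library labelled MIT-Empty. The counts of MIT-BATF replicates 4 and 5 were contained in those of MIT-BATF replicates 2 and 3, and the counts of MIT-Empty replicates 4 and 5 in those of MIT-Empty replicates 2 and 3. In these 4 pairs at most 0.661% of genes had more counts in the contained library, against at least 3.54% in every other pair of libraries. All values below rest on these libraries, so each main result is also given with the shared reads counted once, by subtracting the contained library from the one that contains it. Batf itself had 12.4, 22.6, 23.5, 24.8 and 26.5 CPM (counts scaled to library size) in the libraries labelled MIT-BATF, replicates 1 to 5, against 13.5, 19.9, 36.8, 24.9 and 50.8 CPM in those labelled MIT-Empty. Batf was not higher in the libraries labelled MIT-BATF (log2 fold change -0.41, edgeR adjusted p = 0.522), so its level gives no check of the labels that set the direction of each difference. Mitochondrial genes took 33.2% of the counts of MIT-BATF replicate 1 and between 11.5% and 23.1% in the other libraries. The 8 CD8 T cell markers summed to between 2785 and 4714 CPM in libraries labelled MIT-BATF and between 3163 and 4965 CPM in those labelled MIT-Empty, and 0 of them passed the test by edgeR or DESeq2 or had an unadjusted p under 0.05.

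Tnip3 was higher in every library labelled MIT-BATF than in any labelled MIT-Empty, while the levels of the other 9 genes overlapped between the groups. Tnip3 (ENSMUSG00000044162, mm10 chr6:65525313-65634040, plus strand) encodes ABIN-3, a protein of the TNIP family. It had 34.5, 40.0, 31.9, 56.2 and 47.3 CPM in the libraries labelled MIT-BATF, replicates 1 to 5, against 12.1, 9.80, 10.9, 13.6 and 12.4 CPM in those labelled MIT-Empty. The groups did not overlap, and the lowest library labelled MIT-BATF, replicate 3, was more than double the highest labelled MIT-Empty, replicate 4. The log2 fold change was 1.84 (SE 0.18), a 3.58-fold difference, which ranked 69 among the 11781 genes from the highest. With shared reads counted once, Tnip3 had 37.0, 31.0, 21.8, 60.4 and 50.8 CPM in libraries labelled MIT-BATF, against 13.0, 8.83, 10.1, 14.7 and 13.4 CPM in those labelled MIT-Empty. The groups still did not overlap and the log2 fold change was 1.75 (SE 0.27), but the gap narrowed at MIT-BATF replicate 3, whose reads are mostly those of replicate 5 in this gene. Behind these values stand 393 to 1377 counts per library labelled MIT-BATF and 84 to 267 per library labelled MIT-Empty. Levels in bulk RNA average over cells, so fewer cells expressing a gene and less RNA per cell cannot be told apart.

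**Figure D1:**
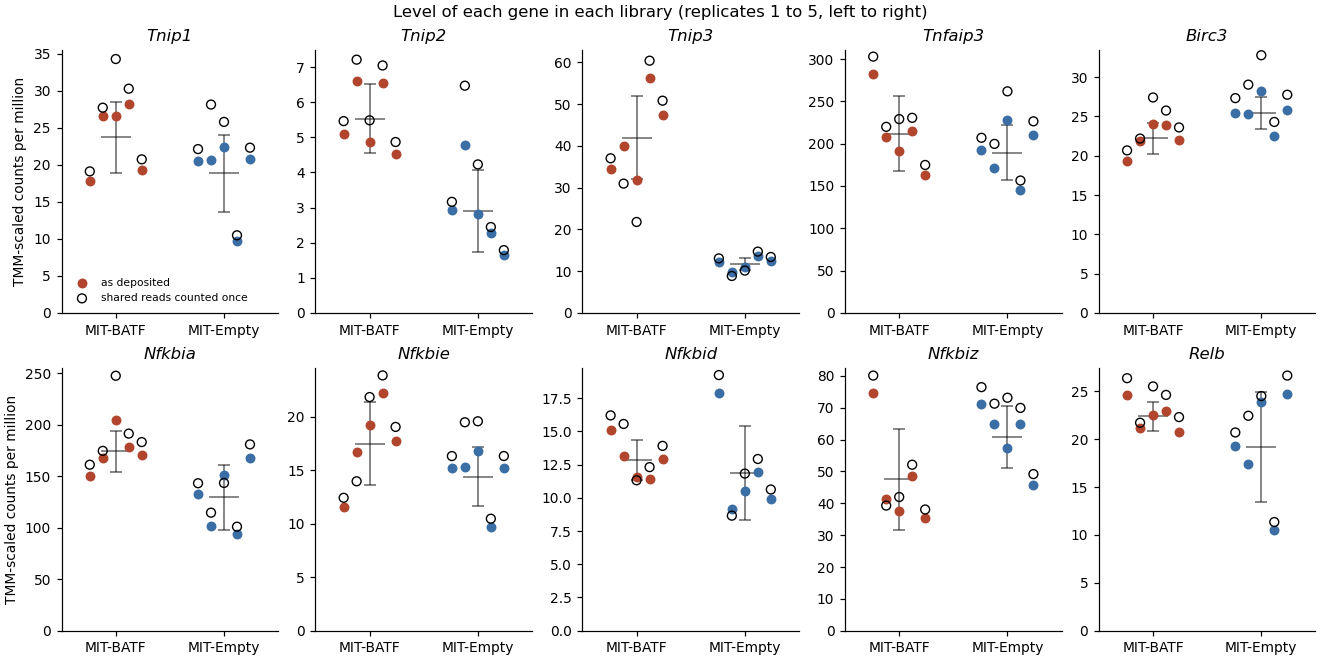
TMM-scaled CPM of the 10 genes (vertical axes, from 0) in each library labelled MIT-BATF or MIT-Empty, replicates 1 to 5 from left to right. Filled points are values as deposited, open points count shared reads once, and bars are the mean and SD of the filled points (n = 5). The groups separate for Tnip3, with 31.9 to 56.2 CPM in libraries labelled MIT-BATF and 9.80 to 13.6 CPM in those labelled MIT-Empty, and overlap for the other 9 genes.

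Tnip1 (ENSMUSG00000020400, chr11:54910785-54962917, minus strand) encodes ABIN-1, a ubiquitin-binding partner of A20. It had 17.8, 26.6, 26.6, 28.2 and 19.3 CPM in libraries labelled MIT-BATF, against 20.6, 20.7, 22.5, 9.70 and 20.7 CPM in those labelled MIT-Empty. The groups overlapped, MIT-Empty replicate 4 lay far below the other 4 of its group, and the log2 fold change was 0.32 (SE 0.21), or 0.17 without that library. Gm12230, on the opposite strand, overlaps Tnip1 but held only 14 counts over all 10 libraries. Tnip2 (ENSMUSG00000059866, chr5:34496087-34513991, minus strand) encodes ABIN-2, which also binds the kinase TPL2. It was the scarcest of the 10 genes, with 5.09, 6.61, 4.87, 6.56 and 4.53 CPM in libraries labelled MIT-BATF, against 2.94, 4.77, 2.82, 2.26 and 1.66 CPM in those labelled MIT-Empty. Only MIT-Empty replicate 2 reached into the range of the libraries labelled MIT-BATF, and the log2 fold change was 0.91 (SE 0.30). It was 0.72 (SE 0.36) with shared reads counted once, on as few as 14 counts in a library.

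The make-up of the Tnip family therefore differed between the groups. In TPM, which scale counts to transcript length and allow levels of different genes to be set side by side, Tnip3 made up 58.0%, 54.2%, 50.6%, 64.8% and 67.7% of the family sum in libraries labelled MIT-BATF. In libraries labelled MIT-Empty its share was 38.5%, 30.9%, 27.0%, 57.1% and 34.6%. Tnip3 was thus the most abundant of the 3 in all 5 libraries labelled MIT-BATF, and Tnip1 was in all of those labelled MIT-Empty but replicate 4. The shares averaged 59.0% ± 7.16 in libraries labelled MIT-BATF and 37.6% ± 11.7 in those labelled MIT-Empty (SD, n = 5 each), and they overlapped because of that replicate, in which Tnip1 was low. The family sum was 12.9 to 26.4 TPM in libraries labelled MIT-BATF and 7.77 to 11.3 TPM in those labelled MIT-Empty, without overlap. On CPM with shared reads counted once, the share of Tnip3 was 54.2% ± 12.8 in libraries labelled MIT-BATF and 33.7% ± 12.6 in those labelled MIT-Empty, and it was 35.4% in MIT-BATF replicate 3, where Tnip1 led with 55.7%. Set against Tnfaip3, the partner gene, Tnip3 stood at 0.207 ± 0.069 of its CPM in libraries labelled MIT-BATF and at 0.064 ± 0.017 in those labelled MIT-Empty, without overlap. With shared reads counted once this ratio was 0.182 ± 0.088 in libraries labelled MIT-BATF and 0.060 ± 0.022 in those labelled MIT-Empty. The groups then nearly touched, at 0.0950 in the lowest library labelled MIT-BATF and 0.0938 in the highest labelled MIT-Empty.

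**Figure D2:**
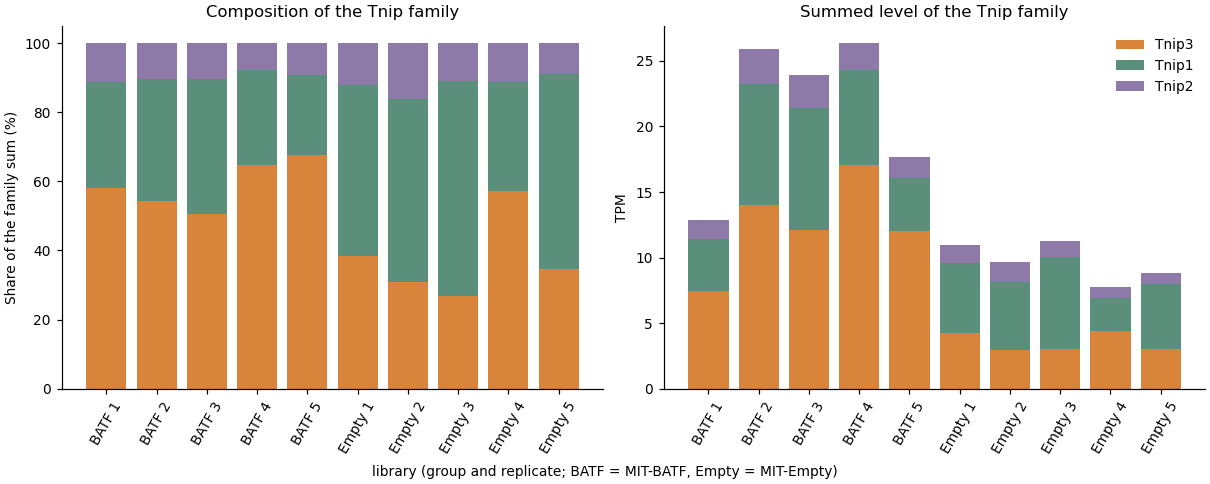
Tnip3 (bottom), Tnip1 (middle) and Tnip2 (top) in each library, as a share of the family sum in percent (left) and as TPM (right). Tnip3 makes up 50.6% to 67.7% of the sum in libraries labelled MIT-BATF and 27.0% to 57.1% in those labelled MIT-Empty, where replicate 4 is the highest.

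On average, most counts of Tnip3 were assigned to transcripts that start far upstream of its RefSeq start. Tnip3-208 and Tnip3-207, which start within 100 bases of position 65525313 on chromosome 6, took 62.1% ± 11.2 of the gene's counts in libraries labelled MIT-BATF and 66.7% ± 16.0 in those labelled MIT-Empty (SD, n = 5 each). These shares ranged from 44.9% to 75.6% in libraries labelled MIT-BATF and from 47.0% to 82.7% in those labelled MIT-Empty, so the groups overlapped. With shared reads counted once they averaged 56.9% ± 13.3 in libraries labelled MIT-BATF and 65.1% ± 18.7 in those labelled MIT-Empty. Tnip3-201, which starts 65085 bases downstream at the RefSeq start, took 29.0% ± 7.35 in libraries labelled MIT-BATF and 20.7% ± 11.2 in those labelled MIT-Empty. The exact two-sided permutation test gave an adjusted p of 0.367 for Tnip3-201 and 0.881 for Tnip3-208.

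The promoters of the Tnip genes and of Nfkbia show what surrounds the RefSeq starts of the gene that differed and of those that overlapped. Each line holds the 250 bases before the start, 5′ to 3′ on the strand of the gene, from RefSeq on GRCm38.p6, with matches to the κB consensus, the site that NF-κB dimers bind, in capitals. They cover chr6:65590148-65590397 for Tnip3, chr11:54962941-54963190 for Tnip1, chr5:34513980-34514229 for Tnip2 and chr12:55492648-55492897 for Nfkbia.
Tnip3: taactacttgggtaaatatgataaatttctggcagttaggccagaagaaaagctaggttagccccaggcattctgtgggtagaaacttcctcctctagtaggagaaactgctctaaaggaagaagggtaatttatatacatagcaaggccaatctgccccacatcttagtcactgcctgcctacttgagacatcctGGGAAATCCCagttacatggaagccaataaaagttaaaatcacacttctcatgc
Tnip1: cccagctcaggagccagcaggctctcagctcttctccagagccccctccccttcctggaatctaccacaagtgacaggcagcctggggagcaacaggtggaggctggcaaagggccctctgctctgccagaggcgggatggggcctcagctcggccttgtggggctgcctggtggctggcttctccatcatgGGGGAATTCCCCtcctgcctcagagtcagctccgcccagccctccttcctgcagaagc
Tnip2: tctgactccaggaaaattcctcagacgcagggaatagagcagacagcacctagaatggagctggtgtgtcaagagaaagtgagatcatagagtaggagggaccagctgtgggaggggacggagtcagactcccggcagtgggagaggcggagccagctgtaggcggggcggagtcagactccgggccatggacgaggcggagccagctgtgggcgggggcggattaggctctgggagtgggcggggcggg
Nfkbia: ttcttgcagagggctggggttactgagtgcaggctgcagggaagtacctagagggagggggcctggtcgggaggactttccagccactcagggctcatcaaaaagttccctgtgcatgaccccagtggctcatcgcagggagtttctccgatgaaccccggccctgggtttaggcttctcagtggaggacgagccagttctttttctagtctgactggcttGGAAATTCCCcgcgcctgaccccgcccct
Tnip3 has a single match, GGGAAATCCC, which begins 54 bases before its start. Nfkbia has one that begins 29 bases before its start, and Tnip1 has 3 overlapping matches, which form the run GGGGAATTCCCC and begin 58, 57 and 56 bases before its start. Tnip2 has no match. Over the 300 bases that run 50 bases past the start, searched on both strands, 6 of the 11 promoters listed for 8 of the 10 genes held a match, against 8.46% of all 32851 promoters in the same table. The others with a match were the first start of Tnfaip3, with 2, one start of Nfkbid, with 2, and Nfkbie, with 1, while Birc3 had none. That start of Nfkbid is the one of Nfkbid-202, which held 1.61% of the gene's counts on average. The window at the start of Nfkbid-203, which held 90.1%, had no match. An AP-1 motif, TGANTCA, lay in the windows of Tnfaip3 and Nfkbie only, 2 of 11 against 7.81% of all promoters. The AP-1 and IRF composite motifs, to which BATF binds together with IRF factors, were in 0 of the 11 windows, against 0.119% of all promoters for the spaced and 0.125% for the joined form. Motifs this rare would hardly be met in 11 windows, so nothing is read from the 0. Binding of BATF was not tested. A κB match was present both in Tnip3, whose level differed, and in genes whose levels overlapped. The window of Tnip3 lies at the start to which, on average, the smaller share of its counts was assigned, and its upstream start was not searched. Whether any match is bound in these cells, or bears on the levels, was not tested.

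Tnfaip3 and Birc3 act at the ubiquitin step, and neither separated the groups. Tnfaip3 (ENSMUSG00000019850, chr10:19000910-19015657, minus strand) encodes A20, which removes activating ubiquitin chains and restrains CD8+ T cell responses. It had 282, 208, 192, 215 and 163 CPM in libraries labelled MIT-BATF, against 192, 171, 228, 145 and 210 CPM in those labelled MIT-Empty. The groups overlapped over most of their range, the highest value was MIT-BATF replicate 1, and the log2 fold change was 0.16 (SE 0.17), or 0.042 without that library. Birc3 (ENSMUSG00000032000, chr9:7848699-7873186, minus strand) encodes the ubiquitin ligase cIAP2. It had 19.3 to 24.0 CPM in libraries labelled MIT-BATF and 22.5 to 28.3 CPM in those labelled MIT-Empty, with a log2 fold change of -0.20 (SE 0.13). Only MIT-Empty replicate 4 reached into the range of the libraries labelled MIT-BATF for this gene.

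The IκB genes overlapped between the groups, and they did not share a direction. Nfkbia (ENSMUSG00000021025, chr12:55489410-55492647, minus strand) encodes IκBα, the main cytoplasmic inhibitor and an immediate target of the pathway. It had 150, 168, 205, 178 and 171 CPM in libraries labelled MIT-BATF, against 133, 101, 151, 93.6 and 168 CPM in those labelled MIT-Empty. MIT-Empty replicates 3 and 5 lay within the range of those labelled MIT-BATF, and the log2 fold change was 0.43 (SE 0.17). Nfkbie (ENSMUSG00000023947, chr17:45555703-45563169, plus strand) encodes IκBε, a second cytoplasmic inhibitor. It had 11.6 to 22.2 CPM in libraries labelled MIT-BATF and 9.70 to 16.8 CPM in those labelled MIT-Empty, with a log2 fold change of 0.27 (SE 0.20), or 0.17 without MIT-Empty replicate 4. With shared reads counted once its log2 fold change was 0.14 (SE 0.24). Nfkbid (ENSMUSG00000036931, chr7:30421732-30428746, plus strand) encodes the nuclear protein IκBNS. It had 11.5 to 15.1 CPM in libraries labelled MIT-BATF and 9.18 to 17.9 CPM in those labelled MIT-Empty, with a log2 fold change of 0.12 (SE 0.20), between 0.037 without MIT-Empty replicate 2 and 0.32 without MIT-Empty replicate 1.

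Nfkbiz (ENSMUSG00000035356, chr16:55811375-55838899, minus strand) encodes IκBζ, a nuclear IκB protein that helps switch on a subset of NF-κB targets. It was the gene furthest toward lower levels, with 74.6, 41.3, 37.6, 48.5 and 35.4 CPM in libraries labelled MIT-BATF, against 71.1, 65.0, 57.2, 64.7 and 45.7 CPM in those labelled MIT-Empty. The log2 fold change was -0.36 (SE 0.20). MIT-BATF replicate 1, the library with the highest mitochondrial share, was the highest of all 10, and the log2 fold change was -0.57 without it. The other 4 libraries labelled MIT-BATF lay between 35.4 and 48.5 CPM and overlapped with MIT-Empty replicate 5 only. Relb (ENSMUSG00000002983, chr7:19606217-19629438, minus strand), a subunit of the non-canonical branch and the only subunit among the 10, had 20.7 to 24.6 CPM in libraries labelled MIT-BATF and 10.5 to 24.8 CPM in those labelled MIT-Empty. The fitted difference was 0.22 on the log2 scale (SE 0.20), or 0.075 without MIT-Empty replicate 4, again the lowest library.

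**Figure D3:**
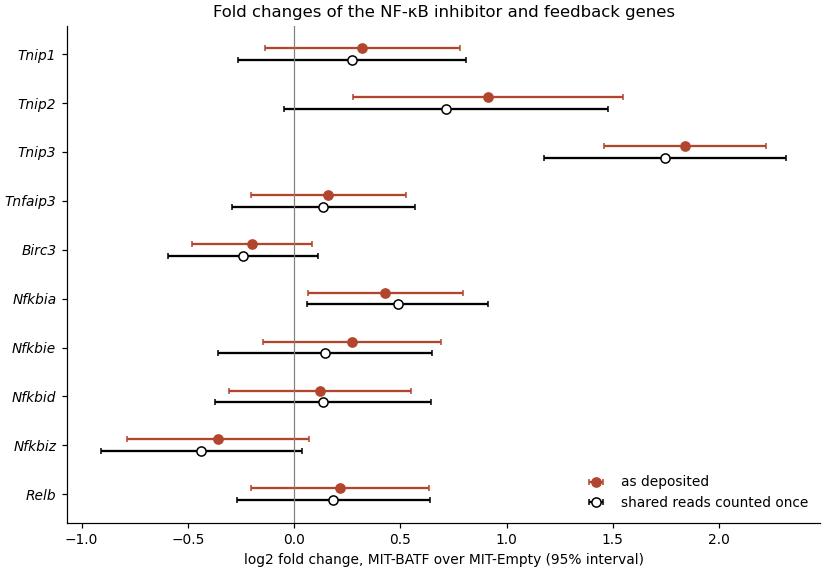
Log2 fold change of MIT-BATF over MIT-Empty for each of the 10 genes, with its 95% interval, as deposited (filled) and with shared reads counted once (open). Tnip3 lies at 1.84 and 1.75, Tnip2 next at 0.91 and 0.72, and Nfkbiz lowest at -0.36 and -0.44.

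Counted by the test over all genes, 1 of the 10 genes, Tnip3, was past the threshold of 0.05 in edgeR's adjusted p, higher in the libraries labelled MIT-BATF, and 0 were lower by edgeR or DESeq2. Over all 11781 genes tested the share past it was 4.58%, with 2.16% higher and 2.43% lower. With shared reads counted once the count was again 1, Tnip3, against 1.26% of 11131 genes, with 0.575% higher and 0.683% lower. DESeq2 put 2 past it, Tnip2 and Tnip3, against 7.57% of 16351 genes. One of the 10, Tnip3, had no overlap between the groups, against 6.45% of all genes tested, and 1 with shared reads counted once, against 3.19%. Since the genes were chosen on this contrast, nothing is read from these counts. The median log2 fold change of the 10 was 0.24, against 0.007 over all genes tested. Leaving Tnip3 out, the other 9 summed to 538 ± 49.4 CPM in libraries labelled MIT-BATF and 472 ± 71.2 CPM in those labelled MIT-Empty (SD, n = 5 each), with overlap.

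The order of levels placed Tnip3 differently in the groups. In TPM, Nfkbia led in both, with 92.2 ± 33.8 in libraries labelled MIT-BATF and 62.8 ± 22.0 in those labelled MIT-Empty, followed by Tnfaip3 with 27.4 ± 5.74 and 23.9 ± 5.28 TPM in the same groups. Tnip3 was the third of the 10 in libraries labelled MIT-BATF, at 12.5 ± 3.50 TPM, and the ninth in those labelled MIT-Empty, at 3.54 ± 0.720 TPM. In libraries labelled MIT-BATF it lay between 7.47 and 17.1 TPM, below the range of Tnfaip3 but overlapping with Nfkbiz, which averaged 10.7 ± 2.53 TPM. In libraries labelled MIT-Empty it lay between 2.99 and 4.44 TPM and overlapped with its neighbours Nfkbie and Nfkbid, which averaged 4.04 ± 0.937 and 4.44 ± 1.35 TPM. Tnip2 was the lowest in both groups, at 2.05 ± 0.530 TPM in libraries labelled MIT-BATF and 1.17 ± 0.325 TPM in those labelled MIT-Empty.

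The split of each gene among its transcripts was a further readout, tested for the 16 transcripts that held at least 10% of a gene on average, leaving out Nfkbie, which has 1 transcript. The exact two-sided permutation test over all assignments of the libraries, whose smallest p is 0.00794, put 0 past an adjusted p of 0.05 and 2 past an unadjusted one. The only pair without overlap between the groups as deposited belonged to Nfkbiz. Nfkbiz-204, a protein-coding transcript that starts at position 55822138 of chromosome 16, took 75.5%, 79.4%, 83.7%, 72.9% and 71.8% of the gene's counts in libraries labelled MIT-BATF. In libraries labelled MIT-Empty it took 65.8%, 58.1%, 71.0%, 66.2% and 56.3%. Nfkbiz-205, a processed transcript without an annotated protein that starts at position 55838899, took most of the rest, 22.0% ± 5.14 in libraries labelled MIT-BATF and 36.5% ± 6.10 in those labelled MIT-Empty (SD, n = 5 each). For both, the exact permutation p was 0.00794 and the adjusted p 0.0635. With shared reads counted once the exact permutation p was 0.0476 for Nfkbiz-204 and 0.0317 for Nfkbiz-205, and the adjusted p 0.381 for both. Both unadjusted values exceed the smallest p, which complete separation gives, so the groups then overlapped. Nfkbiz-204 then took 79.5% ± 8.79 in libraries labelled MIT-BATF and 64.7% ± 10.3 in those labelled MIT-Empty. As deposited, the adjusted p was 0.0476 for both where only transcripts with at least 20% of a gene were tested. The 2 transcripts held 70.1% and 29.2% of the gene on average, so a rise in 1 share is nearly a fall in the other. They are 1 readout that the adjustment counted as 2, which lowers both adjusted values. For Relb, libraries labelled MIT-BATF assigned the counts to different transcripts of nearly equal length: 95.9% to Relb-201 in replicate 1, 48.7% to Relb-201 and 49.7% to Relb-203 in replicate 2, 98.2% to Relb-202 in replicate 4, and 98.7% and 98.0% to Relb-203 in replicates 3 and 5. Relb-203 held 95.5% to 99.5% in those labelled MIT-Empty. How well short reads separate such transcripts was not tested.

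**Figure D4:**
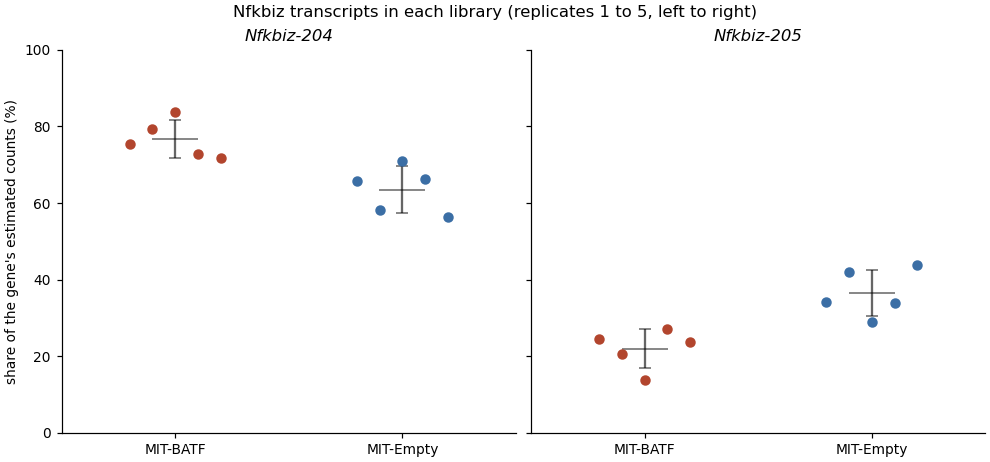
Share of the estimated counts of Nfkbiz, in percent, assigned to Nfkbiz-204 (left) and Nfkbiz-205 (right) in each library, replicates 1 to 5 from left to right, with the mean and SD (n = 5). As deposited, Nfkbiz-204 lies between 71.8% and 83.7% in libraries labelled MIT-BATF and between 56.3% and 71.0% in those labelled MIT-Empty. With shared reads counted once, not drawn here, the groups overlapped.

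Of 67 other genes of the pathway, listed by role, 65 were tested, of which 0 were higher and 3 lower in the libraries labelled MIT-BATF by edgeR's adjusted p, against 2.16% higher and 2.43% lower over all genes tested. The lists were drawn up with earlier results of these data known, so the counts and adjusted p-values here and below are a description. At an unadjusted p under 0.05 in edgeR 11 were higher and 9 lower, against 9.13% higher and 8.97% lower over all genes. DESeq2 called 3 higher and 5 lower over the 67, against 3.09% higher and 4.48% lower over all genes, and the median log2 fold change of the 65 was 0.11. Among the 4 other subunits, Rel, which encodes the c-Rel subunit that is prominent in activated lymphocytes, fell. It had 97.8, 97.0, 77.8, 87.5 and 75.0 CPM in libraries labelled MIT-BATF, against 117, 133, 152, 111 and 125 CPM in those labelled MIT-Empty. The groups did not overlap, with a log2 fold change of -0.55 (SE 0.14, edgeR adjusted p = 0.0335), but the adjusted p was 0.160 with shared reads counted once, at a log2 fold change of -0.61. Rela, the main transactivating subunit, stood at 0.56 on the log2 scale (SE 0.22, edgeR adjusted p = 0.177), or 0.32 without MIT-BATF replicate 1, which had 71.4 CPM.

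The other 2 genes that fell were listed as targets, among 14. Csf2, which encodes the cytokine GM-CSF, had 2.90, 4.78, 2.85, 3.82 and 2.80 CPM in libraries labelled MIT-BATF, against 12.2, 11.4, 10.1, 11.6 and 5.31 CPM in those labelled MIT-Empty. Every library labelled MIT-BATF was below every one labelled MIT-Empty, of which replicate 5 was the lowest. With shared reads counted once they overlapped, at 5.94 CPM in MIT-BATF replicate 2 and 5.71 CPM in MIT-Empty replicate 5. The log2 fold change was -1.56 (SE 0.27), with an edgeR adjusted p of 0.00404, or 0.0182 with shared reads counted once. Cd83, a surface protein induced on activated lymphocytes, had 23.3, 18.8, 17.4, 14.7 and 16.9 CPM in libraries labelled MIT-BATF, against 58.8, 49.3, 52.6, 43.1 and 52.2 CPM in those labelled MIT-Empty. The groups were far apart, with a log2 fold change of -1.49 (SE 0.15) and an edgeR adjusted p of 0.000102, or 0.000888 with shared reads counted once. Without the containing libraries, replicates 2 and 3 of both groups, the adjusted p was 0.223 for Csf2 and 0.0561 for Cd83, at log2 fold changes of -1.61 and -1.49 on 3 libraries a group.

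In the other roles 0 genes passed edgeR's test, over 2 other IκB genes, 10 kinases and adaptors, 4 genes of antigen receptor signalling, 12 TRAF, IAP, RIP and LUBAC genes, 6 ubiquitin-editing genes, 9 receptors and 4 ligands. Over these 47 genes edgeR's unadjusted p was under 0.05 for 5 higher and 6 lower genes, and DESeq2 called 3 higher and 1 lower. Map3k14, which encodes the NIK kinase of the non-canonical branch, came close as deposited, with 8.64 ± 2.48 CPM in libraries labelled MIT-BATF and 4.38 ± 1.20 CPM in those labelled MIT-Empty (log2 fold change 0.97, edgeR adjusted p = 0.0571). Birc2, the cIAP1 ubiquitin ligase that acts with Birc3, had 51.8 ± 10.1 CPM in libraries labelled MIT-BATF and 78.9 ± 11.9 CPM in those labelled MIT-Empty (log2 fold change -0.61, edgeR adjusted p = 0.0510). Tradd, an adaptor of the TNF receptor, stood at 0.97 on the log2 scale (edgeR adjusted p = 0.0989) and Tax1bp1, an adaptor that brings A20 to its targets, at 0.33 (adjusted p = 0.169). With shared reads counted once the edgeR adjusted p was 0.191 for Map3k14, 0.236 for Birc2 and 0.682 for Tradd. Their log2 fold changes were then 0.95, -0.55 and 0.67. Tab2 followed among the adaptors at 0.34 (adjusted p = 0.164) and Cyld, a deubiquitinase, at 0.21 (adjusted p = 0.528). In antigen receptor signalling, Bcl10 and Malt1, partners in 1 complex, had log2 fold changes of -0.39 (edgeR adjusted p = 0.182) and 0.16 (adjusted p = 0.652). Among receptors, Tnfrsf4, which encodes OX40, had -0.50 (adjusted p = 0.165) and Il18r1 -0.40 (adjusted p = 0.181). Among ligands, Ltb had 0.46 (adjusted p = 0.446) and Tnfsf14 -1.10 (adjusted p = 0.269). Nfkbib, which encodes IκBβ, had -0.29 (adjusted p = 0.427) and Bcl3, an atypical IκB protein, -0.08 (adjusted p = 0.941).

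**Figure D5:**
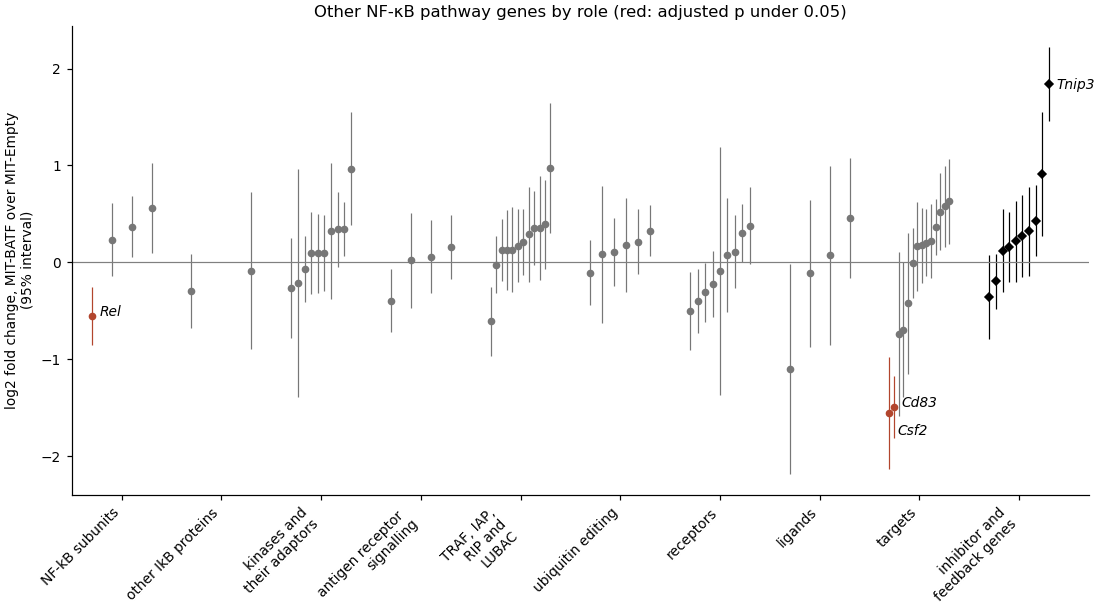
Log2 fold change of MIT-BATF over MIT-Empty, with its 95% interval, for 65 other NF-κB pathway genes by role and for the 10 inhibitor and feedback genes (black diamonds). Points in red passed an edgeR adjusted p of 0.05, and these are Rel at -0.55, Csf2 at -1.56 and Cd83 at -1.49.

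Across the 10 libraries, the genes whose pattern was most like that of Tnip3 were not members of its family. Likeness was the mean absolute difference of log2 CPM, each gene centred on its own mean, over the 10 libraries and among 8912 genes. It spans both groups, so genes with a similar difference between the groups rank near each other. Tnip3 was chosen on that difference, and its 5 nearest genes had log2 fold changes from 1.62 (Klra5) to 2.12 (Ctla2a). The order is therefore a description, and shared regulation was not tested. The nearest were Ctla2b at 0.139 and Ctla2a at 0.193, whose products resemble the propeptides of cysteine proteases, followed by the Ly49 receptor gene Klra5 at 0.271, the GTPase gene Tgtp1 at 0.275 and the chemokine receptor gene Xcr1 at 0.279. Ctla2a and Ctla2b, like Klra5 and Tgtp1, have near-identical relatives, so the split of reads among copies is uncertain. With shared reads counted once Ctla2b and Ctla2a were still the nearest, at 0.192 and 0.224, while Klra5, Xcr1 and Tgtp1 came 7, 8 and 24 in order. Of the other 9 genes, Tnip2 came nearest to Tnip3, as gene 127 in order at 0.493, and Nfkbiz was the least like it, at 1.09. The genes most like Nfkbia were Acot7 at 0.104, Gnptg at 0.109, Wdyhv1 at 0.123, Arhgap45 at 0.124 and Cd82 at 0.125, of which Wdyhv1 came 41, Cd82 19 and Arhgap45 7 in order with shared reads counted once. Nfkbie and Relb came nearest to it among the 9, at 0.189 and 0.193, and Tnip3 was the furthest, at 0.666.

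Markers of melanoma cells, and as deposited some of macrophages and monocytes, differed between the groups as well. The 6 melanoma markers summed to between 14.0 and 28.3 CPM in libraries labelled MIT-BATF and between 39.3 and 1688 CPM in those labelled MIT-Empty, and 5 of 5 tested fell, or 2 of 5 with shared reads counted once. Tyrp1 was the most abundant, at 1.08 to 4.48 CPM in libraries labelled MIT-BATF and 9.46 to 753 CPM in those labelled MIT-Empty. The 9 macrophage and monocyte markers summed to between 20.1 and 76.6 CPM in libraries labelled MIT-BATF and between 38.1 and 227 CPM in those labelled MIT-Empty, and 2 of 7 tested fell by edgeR, or 0 with shared reads counted once, with Lyz2 the most abundant. MIT-Empty replicate 4 was the highest of all 10 libraries in Tyrp1 (753 CPM), Dct (576 CPM), Lyz2 (134 CPM) and Col3a1 (65.6 CPM). It is also the library in which Tnip1, Tnfaip3, Nfkbia, Nfkbie and Relb were lowest. The 5 dendritic cell markers summed to at most 9.32 CPM in libraries labelled MIT-BATF and 13.1 CPM in those labelled MIT-Empty, with Cd209a at 0 in every library. The markers of neutrophils, B cells, CD4+ T cells and NK cells each summed to at most 7.26 CPM in any library, and those of stroma to at most 13.4 CPM in libraries labelled MIT-BATF and 80.8 CPM in those labelled MIT-Empty. A list of 10 genes induced by tissue dissociation, several of them also immediate early genes of T cell activation, summed to 311 to 388 CPM in libraries labelled MIT-BATF and 311 to 446 CPM in those labelled MIT-Empty, with 1 higher, Egr1, as deposited and 0 with shared reads counted once, and 0 lower by edgeR or DESeq2, and 1 lower at an unadjusted p under 0.05. Thy1, which every transduced cell should carry, had 148 CPM in MIT-BATF replicate 1 and between 222 and 339 CPM in the other 9 libraries. The part of these cells, and of the mitochondrial share, in the levels of Tnip3 and the other genes was not tested.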

How the data were processed

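Salmon estimated counts per transcript and the deposited TPM values, scaled by the authors to transcript length and library total, were available for 10 libraries of paired 37 bp reads. The authors ran nf-core/rnaseq on mm10, and no source used here gives the version of Salmon. The deposited estimated counts of 112092 transcripts were summed per gene with the GENCODE annotation of GRCm38, leaving out 305 unmatched transcripts that held 0.0617% to 0.0890% of counts, and rounded to whole numbers. TPM values were used for levels between genes and were not tested. The kit does not mark strand.

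Genes were tested with edgeR 4.0.16 (quasi-likelihood, TMM, filterByExpr, group as the only term) in R 4.3.3, and p-values were adjusted over all tested genes by the Benjamini-Hochberg method. The study used DESeq2, run here (1.42.0) as an alternative. CPM values use TMM-scaled library sizes, which shift all libraries slightly when shared reads are counted once. Differences that became negative after that subtraction, at most 0.215% of a library's counts, were set to 0. Transcript shares were compared by exact two-sided permutation over all assignments of the libraries, with Benjamini-Hochberg adjustment over the transcripts tested. Intervals are the model's. The test was checked on simulated counts of separate libraries, which does not cover libraries contained in others. Python 3.11.15, pandas 2.3.3, scipy 1.17.1 and matplotlib 3.10.9 made tables and figures.

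The 10 genes, the pathway lists by role and the marker lists were chosen with earlier results of these data known. Named besides the 10 were each pathway gene past an adjusted p of 0.05, the 2 with the smallest p of each role where fewer than 2 passed, the 5 genes most like Tnip3 and Nfkbia, Batf, Thy1, and leading markers. The labels number the libraries 1 to 5 in each group. Same-numbered libraries are from different mice, and p-values measure the spread between these libraries, 4 of which are contained in others. Settings compared were other normalizations and filters, a replicate block, shared reads counted once, contained or containing libraries left out, and each library left out.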

Additional observations from a re-analysis of the deposited data

Results flagged for a closer look

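Among 58 groups of 5 values (29 measures in 2 groups), 5 held a library whose gap to the nearest other exceeded Dixon's 95% critical value of 0.710, where chance gives about 1 in 20. In MIT-Empty replicate 4, the shallowest library, whose reads are contained in MIT-Empty replicate 2, Tnip1 was low at 9.70 CPM, and so was Nfkbie, also at 9.70 CPM. The same library was low in 2 other pathway genes, Nfkbib at 18.4 CPM and Tradd at 1.29 CPM. In MIT-BATF replicate 1, the library with the highest mitochondrial share, Rela was high at 71.4 CPM.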

How the results depend on the processing

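The log2 fold changes of the 10 genes kept their sign under all 22 alternatives, with Tnip3 between 1.68 and 1.92, except Nfkbid, at -0.0014 without containing libraries. The 540 genes past edgeR's threshold became 903 with no filter, 140 with shared reads counted once, 173 with a replicate block as well, 96 without contained and 15 without containing libraries, and 1238 by DESeq2. The count was 287 to 772 with 1 library left out, lowest without replicate 2 of MIT-BATF (321) or MIT-Empty (287). Of the 10 genes, 1 to 2 passed with 1 library left out (Nfkbiz also, without MIT-BATF replicate 1), and 2 by DESeq2. The number without overlap was 1 to 2, gaining Tnip2 without MIT-BATF replicate 5 or MIT-Empty replicate 2, and Birc3 without MIT-Empty replicate 4. Of the other pathway genes 3 became 0 without containing libraries, 8 by DESeq2 and 2 to 5 with 1 library left out, with 5 without replicate 1 of either group. Rel passed in 7 of 22 alternatives, not with the replicate block (adjusted p 0.0521, -0.55), and Csf2 and Cd83 in 21. Bcl3 ranged from -0.32 to 0.16 with 1 library left out, turning to 0.16 without MIT-BATF replicate 1 and 0.013 without MIT-Empty replicate 3. Transcripts past the threshold were 0, and 2 with a 20% minimum share, the nearly complementary pair of Nfkbiz. The difference in the Tnip3 share, 21.4 percentage points, was 18.8 to 26.3 with 1 library left out. The cause of these changes was not tested, beyond the smaller number of libraries or reads.

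Shared reads counted once without MIT-BATF replicate 1, and DESeq2 with shared reads counted once, were settings chosen after seeing the data. The first gave 138 genes, with Bcl3 at 0.077, and the second gave 387. As a replicate block, the numbers gave 474 genes. Same-numbered deviations correlated between -0.05 and 0.22, with 2 of 5 libraries labelled MIT-BATF closest to their own number, so the numbers were not taken to pair the libraries. Depth was lowest for Tnip2, with 14 to 210 counts per library.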
